A study of Mus musculus with 22 samples.

Results

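The mitochondrial electron transport chain and ATP synthase are built mostly from subunits encoded in the nucleus, and 78 of those genes are described here in CD4+CD8+ thymocytes with or without E2a. The genes were chosen by symbol, as the Ndufa, Ndufb, Ndufc, Ndufs and Ndufv subunits, the Sdh and Uqcr subunits, the nuclear Cox subunits and the Atp5 subunits. The symbol rule found 84 genes, and the 78 members were those at 1 FPKM or more (fragments per kilobase of a gene, scaled for the depth of the library) in at least 3 of 22 libraries, out of 43430 genes in all. They comprised 36 genes named for complex I, 4 for complex II, 8 for complex III, 13 for complex IV and 17 for complex V. The other 6, Cox4i2, Cox6a2, Cox7b2, Cox8b, Cox8c and Ndufa4l2, are mostly isoforms of muscle, testis or other tissues and were under that level. Just inside it Cox7a1 reached at most 4.25 FPKM and Cox6b2 at most 4.09 FPKM, and just outside it Cox6a2 reached at most 1.90 FPKM and Cox4i2 at most 1.67 FPKM.

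Complexes I to IV pass electrons from NADH and succinate to oxygen, and all of them except II pump protons across the inner mitochondrial membrane. Complex V uses the returning protons to make ATP. A minority of subunits is made inside the mitochondrion from mitochondrial DNA, so each complex except II joins the products of both genomes. Thymocytes at the CD4+CD8+ stage include many small resting cells, and in T cells the demand on respiration is known to change with growth, division and activation.

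E2a, whose gene symbol is Tcf3, encodes E proteins, transcription factors of lymphocyte development. Total RNA came from CD45.1+ CD4+CD8+ thymocytes of 7 groups. At 4 weeks of age these were 3 VavCre E2aF/F libraries with 3 E2aF/F controls, and 3 LckCre E2aF/F libraries with 3 E2aF/F controls. At 8 weeks of age they were 3 VavCre E2aF/F libraries, 4 libraries of VavCre E2aF/F mice that had been sublethally irradiated and given wild-type bone marrow as competitor 4 weeks earlier, and 3 E2aF/F controls. All groups therefore carried the floxed alleles, and the labels name no Cre in the controls. Vav drives Cre throughout the blood lineages and Lck drives it within the T lineage. The labels leave out which cells, donor or host, were CD45.1+ after transplantation. Since no label ties a library to an animal, each p-value reflects spread among libraries, part of which may be technical.

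Tcf3 lay between 1.15 and 2.32 FPKM in the 13 knockout libraries, against 6.39 to 8.22 FPKM in the 9 control libraries. The knockout or control part of every label therefore fitted, and Tcf3 cannot check the Cre, age or transplantation. The step of the low FPKM values implied from 5.49 to 37.5 M reads in a library. Replicate 3 of the transplanted group stood apart, with 223 genes at the value of 1 read, against 767 to 954 in the other 21 libraries. The 78 members took 0.995% of its FPKM, against 1.56% to 1.64% in the other 3 transplanted libraries, 1.65% to 1.66% in the untransplanted 8-week knockouts and 1.39% to 1.45% in the 8-week controls. It was the lowest of its group for 71 of the 78 members and below every 8-week control for 68, so 8-week results are given with and without it. The 8-week knockout libraries had 0.00283 to 0.00743 FPKM of Xist, the RNA of the inactive X chromosome of females, and their controls had 101 to 117 FPKM, so at 8 weeks sex and genotype cannot be told apart. Among the transplanted libraries, replicates 1 and 2 had Xist (116 and 185 FPKM) and replicates 3 and 4 had almost none.

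The marker lists moved too. The summed level of 10 double-positive markers, all detected, was 3822 to 4536 FPKM in 4-week Vav knockouts, against 5066 to 5229 FPKM in their controls. At 8 weeks it was 2703 to 2920 FPKM in knockouts and 1934 to 3963 FPKM in transplanted knockouts, against 5085 to 5492 FPKM in controls. Early thymocyte markers (4 genes) summed to 16.5 to 34.1 FPKM in 4-week Vav knockouts, against 2.60 to 3.06 FPKM in their controls. They summed to 14.2 to 36.0 FPKM in 8-week knockouts and 6.83 to 247 FPKM in transplanted knockouts, against 2.78 to 3.50 FPKM in 8-week controls. In 4-week Vav knockouts Il2ra (13.5 to 30.9 FPKM) and Il7r made up nearly all of the sum. Kit lay below its controls there (0.0202 to 0.0464 FPKM, against 0.143 to 0.238 FPKM), and Cd44 overlapped with them. In 8-week knockouts Kit was higher (0.117 to 1.29 FPKM, against 0.0718 to 0.0872 FPKM), and Cd44 was not (0.0277 to 0.214 FPKM, against 0.202 to 0.232 FPKM). Mature T cell markers (5 genes) summed to 60.2 to 68.4 FPKM in 4-week Vav knockouts, against 23.7 to 24.8 FPKM in their controls. Their 8-week sums were 57.8 to 108 FPKM in knockouts and 31.7 to 220 FPKM in transplanted knockouts, against 31.0 to 35.4 FPKM in controls. In the Lck groups the sums lay closer, with 4669 to 4877 FPKM of double-positive markers in knockouts and 4983 to 5190 FPKM in controls. B cell markers (5 genes) summed to at most 1.15 FPKM in any library, dendritic markers (3 genes) to at most 0.666 FPKM and thymic stroma markers (5 genes) to at most 2.27 FPKM. Erythroid markers (4 genes) summed to 3.44 to 16.7 FPKM in 8-week knockouts and 26.9 to 72.6 FPKM in transplanted knockouts, against 13.9 to 30.7 FPKM in 8-week controls, and macrophage and granulocyte markers (5 genes) reached 17.3 FPKM in transplanted replicate 3. In bulk RNA a change in the mix of cells and a change in RNA per cell cannot be told apart, and the part of these markers in the results that follow was not tested.

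The level of the members spanned from 2 to 190 FPKM in control thymocytes, as means over 9 control libraries. The highest was Cox6b1, a complex IV subunit that faces the intermembrane space, at 190 ± 12.6 FPKM (SD, n = 9). It was followed by Ndufa4 at 152 ± 13.4 FPKM, which carries a complex I name and is known as a subunit of complex IV, and by Cox8a at 147 ± 5.07 FPKM, a small complex IV subunit. The levels of Ndufa4 and Cox8a differed by less than their spread. Atp5b, the catalytic beta subunit of ATP synthase, had 117 ± 6.72 FPKM and Atp5mpl, a small ATP synthase proteolipid, had 103 ± 12.7 FPKM. The lowest were Cox7a1 at 2.24 ± 0.474 FPKM and Cox6b2 at 2.29 ± 0.359 FPKM, the muscle and testis isoforms of Cox7a2 and Cox6b1, which did not differ beyond their spread.

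**Figure D1:**
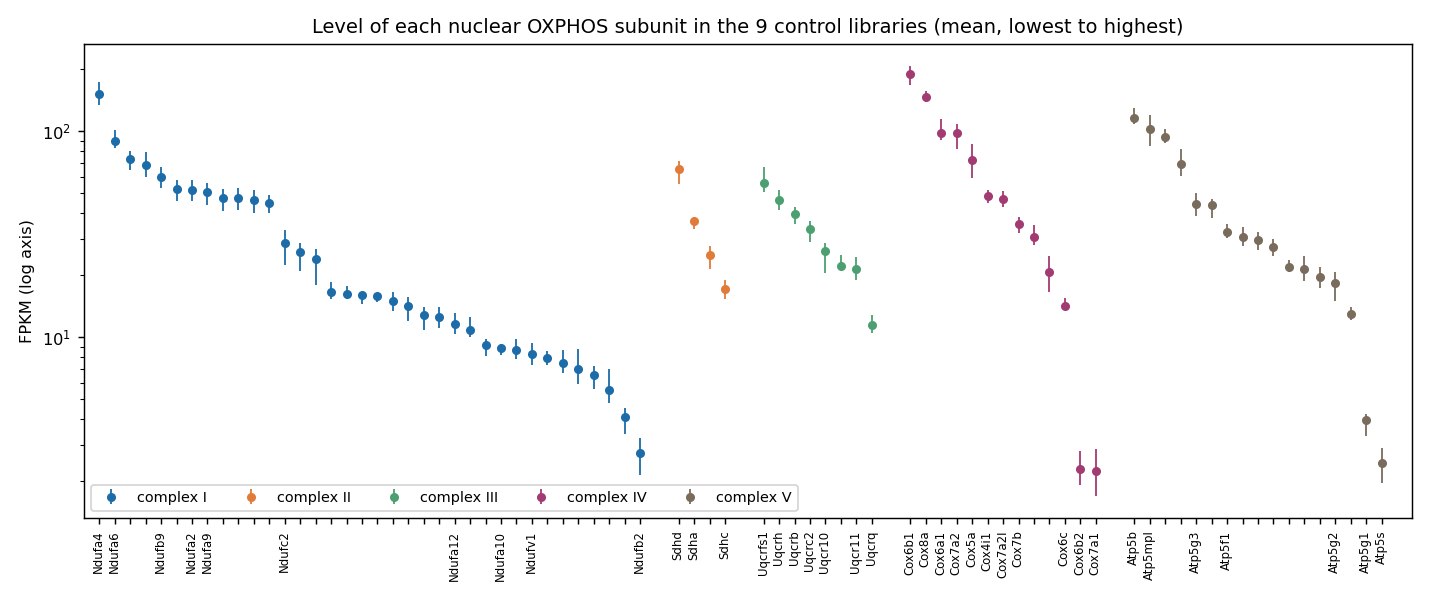
FPKM of each of the 78 members in the 9 control libraries on a log axis, by complex, with points for means, lines from the lowest to the highest library and symbols for the 38 named members. The members of complex IV have the highest median (46.7 FPKM) and those of complex I the lowest (15.9 FPKM).

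By complex, the median level was 15.9 FPKM for complex I, 30.8 FPKM for complex II, 29.8 FPKM for complex III, 46.7 FPKM for complex IV and 29.7 FPKM for complex V. At 50 FPKM or more were 19 members, and under 10 FPKM were 15, of which 11 belong to complex I. Among the 3 genes for the c subunit of the ATP synthase ring, which encode the same mature protein, 8-week controls had 38.7, 41.9 and 38.96 FPKM of Atp5g3, 15.3, 15.03 and 16.9 FPKM of Atp5g2 and 4.05, 3.77 and 4.03 FPKM of Atp5g1. Reads of these near-identical genes and of their processed copies could be split by the counting, so each one's level is uncertain.

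Nuclear genes of respiration are known to be bound by NRF1 and other promoter factors, so the promoters were searched for short motifs. RefSeq promoters, each 250 bases before to 50 bases after the gene start on GRCm38.p6, were found for 64 of the 78 members. The core of the NRF1 motif, GCATGCGC, on either strand, was in 10 of the 64 (15.6%), against 6.97% of the promoters of all genes tested in Vav knockouts at 4 weeks and 3.05% of all promoters in the table. The letters AAGATGGCG, part of the YY1 motif, were in 7 members (10.9%), against 4.41% of the genes tested and 1.64% of all promoters. The ETS letters CCGGAAGTG, bound by GABPA, were in 2 members (3.12%), against 6.03% of the genes tested and 2.25% of all promoters. The ERR letters TCAAGGTCA were in 2 (3.12%), against 0.329% of the genes tested and 0.466% of all promoters. The E-box letters CAGCTG, a kind that E proteins bind, were in 5 members (7.81%), against 16.3% of the genes tested and 18.3% of all promoters. The E-box letters CACGTG, a kind that MYC binds, were also in 5 (7.81%), against 12.4% of the genes tested and 8.09% of all promoters. Both strands were searched for every motif, and in none of the windows printed here did a match overlap another motif (0 windows). A match is only a run of letters and not a bound site.

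The 10 NRF1 cores are shown because they are the shared letters found most often among the members. Each line gives 28 bases of the gene's strand from RefSeq (GRCm38.p6), with the core in capitals.
Atp5g2 (chr15:102671072-102671099, minus strand): ggctccggccGCGCATGCgcagagcctt
Atp5k (chr5:108434432-108434459, minus strand): tttcactgcgGCGCATGCgcctttctgg
Atp5l (chr9:44920965-44920992, minus strand): aaccaataacGCATGCGCatttccccca
Cox6a1 (chr5:115349103-115349130, minus strand): caggaacgggGCGCATGCgcgctctcgc
Ndufa11 (chr17:56717692-56717719, plus strand): cctgcactgcGCGCATGCgcgcacgcct
Ndufa6 (chr15:82354357-82354384, minus strand): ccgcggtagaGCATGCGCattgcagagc
Ndufa8 (chr2:36049329-36049356, minus strand): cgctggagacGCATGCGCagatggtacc
Sdhb (chr4:140961207-140961234, plus strand): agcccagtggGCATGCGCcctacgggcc
Uqcr11 (chr10:80406808-80406835, minus strand): tcgccttcacGCATGCGCtatacgtctg
Uqcrc1 (chr9:108936668-108936695, plus strand): actccgctctGCGCATGCgcagcgcggc
In Atp5g2, Atp5k, Cox6a1, Ndufa11 and Uqcrc1 the letters read on both strands within the same stretch, and the capitals mark the first of these matches.

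Ndufa6 is the only member called in every comparison of a Vav knockout with its control, so more of its promoter is given. The 219 bases directly upstream of its first exon (chr15:82354323-82354541, GRCm38.p6, minus strand) hold 1 NRF1 core, in capitals. No annotated exon of Ndufa6 overlaps them, and exons of other genes were not checked.
Ndufa6 upstream: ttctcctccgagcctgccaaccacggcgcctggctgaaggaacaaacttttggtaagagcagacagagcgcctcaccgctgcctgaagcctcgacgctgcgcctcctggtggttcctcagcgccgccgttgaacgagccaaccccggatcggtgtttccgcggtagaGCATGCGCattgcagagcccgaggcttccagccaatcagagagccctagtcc

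At 4 weeks 9 of the 78 members rose in Vav knockouts and 0 fell. The calls were 5 complex I subunits (Ndufb9, Ndufa6, Ndufa12, Ndufc2 and Ndufa10), 3 complex IV subunits (Cox5a, Cox6c and Cox7b) and Atp5g2 of complex V, with folds between 1.20 and 1.44. Over all 10828 genes tested, 7.63% were called higher and 6.08% lower, so 11.5% of the members and 7.63% of all genes were called higher. The test was limma's on log2(FPKM + 1), with a Benjamini-Hochberg adjusted p under 0.05 as a call, and fold changes on that scale understate low genes. The median log2 fold change was 0.12 over the members, 65 of which were above 0, and -0.01 over all genes. At an unadjusted p under 0.05 there were 29 members, 26 of them higher, against 29.9% of all genes in either direction and 15.7% higher. By complex the median was 0.09 for I, 0.13 for II, 0.08 for III, 0.17 for IV and 0.16 for V.

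The largest rise at 4 weeks was that of Atp5g2 (ENSMUSG00000062683), which had 26.9, 33.4 and 28.5 FPKM in Vav knockouts, against 19.1, 20.8 and 20.8 FPKM in controls. Every knockout library was above every control, and the log2 fold change was 0.52 (SE 0.09, adjusted p = 0.0131). Ndufb9 (ENSMUSG00000022354), an accessory subunit of the membrane arm of complex I, had 84.99, 86.8 and 96.0 FPKM in knockouts, against 59.2, 67.3 and 61.3 FPKM in controls. The groups lay well apart, with a log2 fold change of 0.51 (SE 0.08, adjusted p = 0.00942). Ndufa6 (ENSMUSG00000022450), an accessory complex I subunit on the matrix side, had 129, 117 and 111 FPKM in knockouts, against 83.1, 87.1 and 90.7 FPKM in controls. Its lowest knockout library exceeded its highest control, and the log2 fold change was 0.45 (SE 0.08, adjusted p = 0.0139).

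Ndufa12, another accessory subunit of the matrix arm, had 15.6, 16.5 and 14.9 FPKM in knockouts, against 10.4, 12.6 and 12.1 FPKM in controls. The groups did not overlap, and the log2 fold change was 0.40 (SE 0.08, adjusted p = 0.026). Ndufc2, of the membrane arm, had 38.8, 35.7 and 35.9 FPKM in knockouts and a tight 29.7, 30.5 and 30.0 FPKM in controls, with a log2 fold change of 0.28 (SE 0.05, adjusted p = 0.0191). Ndufa10, also of the membrane arm, had 10.99, 10.2 and 11.5 FPKM in knockouts, against 8.65, 9.32 and 8.69 FPKM in controls. The 3 knockout libraries were all higher, by 0.26 on the log2 scale (SE 0.06, adjusted p = 0.0396).

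In complex IV, Cox5a, a subunit on the matrix side, had 105, 96.7 and 94.4 FPKM in knockouts, against 67.5, 82.6 and 79.8 FPKM in controls. One control library was clearly lowest, and the log2 fold change was 0.36 (SE 0.09, adjusted p = 0.0462). Cox6c, a small membrane subunit, had 18.1, 18.6 and 19.5 FPKM in knockouts, against 13.7, 15.6 and 14.2 FPKM in controls, a log2 fold change of 0.35 (SE 0.06, adjusted p = 0.0168). Cox7b, a small subunit encoded on the X chromosome, had 42.2, 45.9 and 46.1 FPKM in knockouts, against 35.7, 38.6 and 36.7 FPKM in controls, a log2 fold change of 0.27 (SE 0.06, adjusted p = 0.0326). In neither gene did the groups overlap, and each group held 1 library without Xist and 2 with it.

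Complexes II and III had no call at 4 weeks. Sdha, the flavoprotein that oxidises succinate, had 39.1, 45.2 and 39.5 FPKM in Vav knockouts, against 36.3, 37.4 and 37.7 FPKM in controls, a log2 fold change of 0.15 (SE 0.07) that did not pass. Uqcr10, a small complex III subunit, had 32.2, 32.1 and 32.8 FPKM in knockouts, against 25.6, 28.7 and 28.8 FPKM in controls, a log2 fold change of 0.22 (SE 0.06) that did not pass either. In both genes the groups stood apart without overlap.

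Counted by library, 32 of the 78 members (41.0%) had every Vav knockout above every control at 4 weeks, against 19.2% of all genes tested. Every knockout was below every control for 2 members (2.56%), against 18.7% of all genes. These were Cox6b2, the testis isoform, and Ndufa1, a complex I subunit of the X chromosome, both named here after their values were seen. Cox6b2 had 1.01, 1.61 and 0.796 FPKM in knockouts, against 2.05, 1.996 and 2.11 FPKM in controls, a log2 fold change of -0.53 (SE 0.14) with an adjusted p of 0.0553. Ndufa1 had 60.6, 63.6 and 64.4 FPKM in knockouts, against 69.1, 77.3 and 69.4 FPKM in controls, a log2 fold change of -0.19 with an adjusted p of 0.108. Neither passed the threshold.

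The count of 9 rests on few libraries. It was 0 without control replicate 3, 1 without control replicate 1, 2 without control replicate 2 and 4 without knockout replicate 3. Control replicate 1 was below the mean of the other controls for 70 of the 78 members. When every library was scaled to the same FPKM sum, 37.5% of all calls were higher, against 55.7% as deposited, and the members then gave 6 higher and 1 lower.

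**Figure D2:**
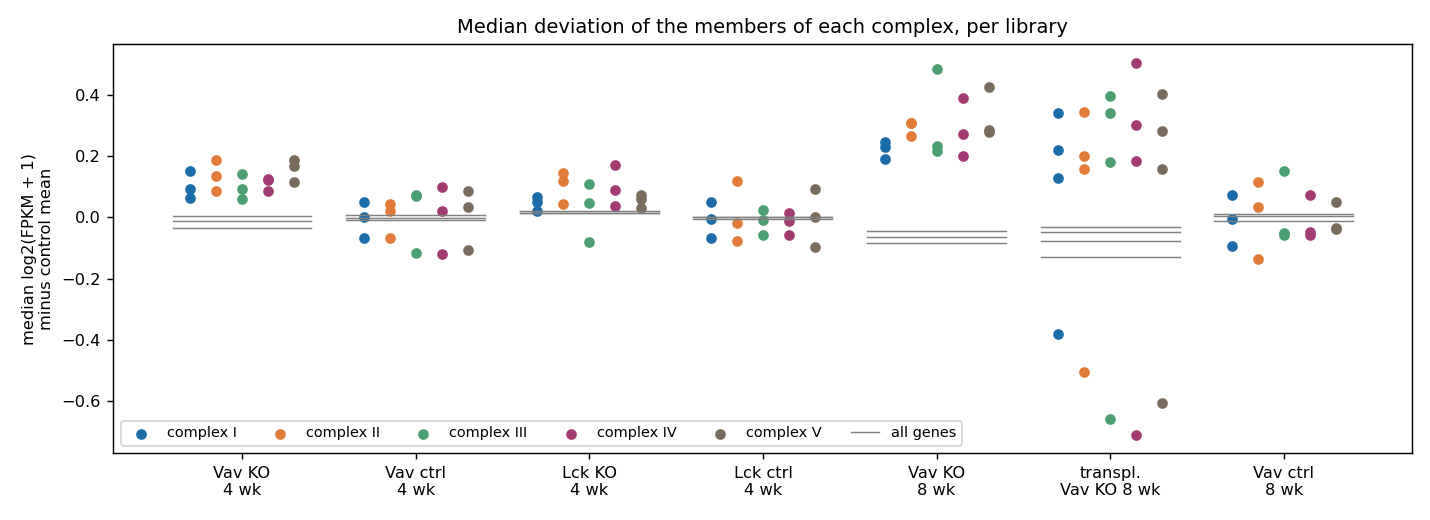
Each point is 1 library's median difference, in log2(FPKM + 1), from the mean of its controls (a control from the other controls) over the members of 1 complex, and grey lines give the same over all genes at 5 FPKM or more. All complexes lie above 0 in the untransplanted Vav knockouts of both ages, and below 0 in transplanted replicate 3, the lowest point of its group (-0.38 for complex I and -0.71 for complex IV).

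With Lck-driven deletion at 4 weeks, 0 members were called higher and 0 lower. The implied depth was 5.49 to 16.3 M reads in the Lck libraries, against 31.1 to 37.5 M in the 4-week Vav libraries. Xist was 145 FPKM in Lck knockout replicate 3 and at most 0.0957 FPKM in the other Lck libraries. The part of depth and of sex in the Lck results was not tested. Over the 10946 genes tested, limma called 0.201% higher and 0.804% lower, and at an unadjusted p under 0.05 there were 5 members, 4 of them higher, against 13.7% of all genes in either direction and 7.79% higher. The median log2 fold change was 0.06 over the members and 0.02 over all genes, and 61 members were above 0. When every library was scaled to the same FPKM sum the members' median was -0.03 and that of all genes -0.06, and 4.4% of all calls were then higher, against 20% as deposited. The Lck knockouts were all above the controls for 7 members (8.97%), against 11.7% of all genes, and all below for 2 members (2.56%), against 8.27%. The pair below was Ndufs3, a core subunit of the matrix arm of complex I, and Uqcr11, a small complex III subunit.

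Uqcr11 had 17.1, 14.6 and 18.3 FPKM in Lck knockouts, against 20.9, 19.0 and 21.5 FPKM in controls, a log2 fold change of -0.28 (SE 0.09, adjusted p = 0.243). Its groups did not overlap, but the difference did not pass. Uqcr11 (chr10:80402997-80406830, mm10, minus strand) is the neighbour of Tcf3 (chr10:80409514-80433647), the deleted gene. In Vav knockouts at 4 weeks its log2 fold change was 0.00 (SE 0.09), with 18.9, 23.8 and 22.1 FPKM in knockouts and 20.8, 21.5 and 22.1 FPKM in controls. Of complex I, Ndufa2 of the matrix arm had the smallest p, with 51.0, 60.6 and 55.0 FPKM in Lck knockouts, against 46.0, 47.8 and 47.0 FPKM in controls. All 3 knockouts were higher, by 0.23 on the log2 scale (SE 0.07, adjusted p = 0.202).

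The 9 members called with Vav were close to their controls with Lck. Ndufb9 had 55.5, 66.9 and 71.9 FPKM in Lck knockouts, against 59.1, 54.7 and 60.8 FPKM in controls. Cox6c had 14.6, 15.1 and 15.3 FPKM in Lck knockouts, against 13.8, 13.5 and 14.4 FPKM in controls, and Atp5g2 had 20.2, 21.1 and 18.6 FPKM, against 19.2, 16.9 and 20.3 FPKM. The groups overlapped for Ndufb9 and Atp5g2 and not for Cox6c. The difference between the Vav and the Lck effect, tested as an interaction over 12 libraries, was called for 0 members in either direction, against 1.65% of 10541 genes higher and 1.65% lower. Its median was 0.07 over the members and -0.02 over all genes, and 11 members had an unadjusted p under 0.05, against 16.9% of all genes. The absence of calls does not show that the effects were alike: for Atp5g2 the difference was 0.44 and for Cox6b2 it was -0.72 (SE 0.19, adjusted p = 0.0726). It gave 1 call without Lck knockout replicate 3, and 1 call lower without Vav knockout replicate 2.

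**Figure D3:**
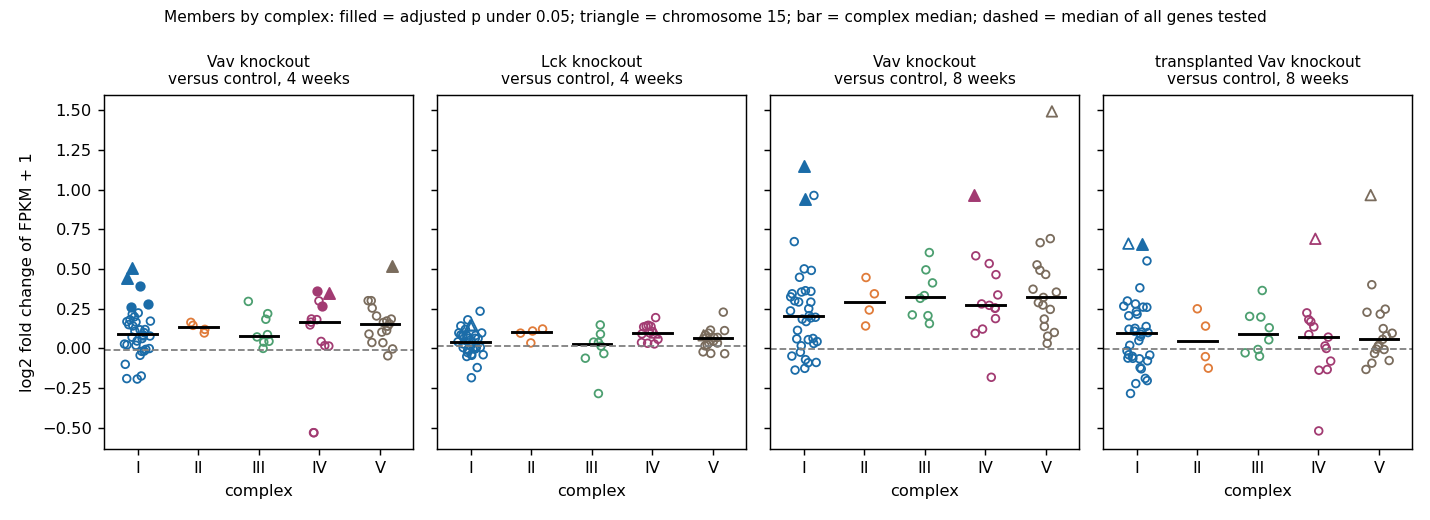
Log2 fold change of each member against controls, by complex, with filled points for called members, triangles for chromosome 15, bars for complex medians and a dashed line for the median of all genes tested. The members lie mostly above 0 in the Vav comparisons (65 of 78 at 4 weeks and 70 at 8 weeks), and the Lck values are smaller.

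At 8 weeks the median rise of the members was larger, and how many passed the test depended on which libraries shared the fit. With all 10 libraries of the 8-week table in 1 fit, 3 members were called higher in Vav knockouts (Ndufb9, Ndufa6 and Cox6c) and 0 lower, against 4.65% and 4.45% of 11632 genes. The median log2 fold change was 0.27 over the members and -0.00 over all genes, and 70 members were above 0. At an unadjusted p under 0.05 there were 9 members, all higher, against 29.4% of all genes in either direction and 14.7% higher. By complex the median was 0.20 for I, 0.29 for II, 0.32 for III, 0.27 for IV and 0.32 for V. Without transplanted replicate 3, which enters the fit through the shared spread, 28 members were called higher and 0 lower, against 16.6% and 14.2% of 11472 genes. These were 13 of complex I, 2 of complex II, 2 of complex III, 3 of complex IV and 8 of complex V, and the members' median standard error was 0.11, against 0.22 with that library. With the transplanted group left out altogether, 42 members were called higher and 0 lower, against 22.9% and 22.8% of 10958 genes. Leaving out any 1 of the 6 untransplanted knockout or control libraries gave 0 calls among the members.

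Ndufb9 had 143, 123.3 and 130 FPKM in 8-week knockouts, against 53.0, 63.3 and 60.6 FPKM in controls, a log2 fold change of 1.15 (SE 0.26, adjusted p = 0.0291). Ndufa6 had 178, 175 and 204 FPKM in knockouts, against 88.5, 102 and 98.0 FPKM in controls, a log2 fold change of 0.94 (SE 0.19, adjusted p = 0.0179). Cox6c had 32.1, 25.2 and 29.4 FPKM in knockouts, against 13.6, 14.7 and 14.5 FPKM in controls, a log2 fold change of 0.97 (SE 0.23, adjusted p = 0.0338). In each of these genes every knockout was well above every control, with folds between 1.92 and 2.22.

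Atp5g2 had 45.1, 45.3 and 47.8 FPKM in 8-week knockouts, against 15.3, 15.03 and 16.9 FPKM in controls. That was the largest fold change among the members, 1.49 on the log2 scale (SE 0.43), yet it did not pass with all libraries in the fit (adjusted p = 0.0591). It passed without transplanted replicate 3. The other genes of the c subunit were also higher in every knockout, with 6.71, 6.85 and 7.44 FPKM of Atp5g1 and 51.8, 54.8 and 49.3 FPKM of Atp5g3 in knockouts, against the control values given above. Their log2 fold changes were 0.69 (SE 0.39) and 0.37 (SE 0.30), and neither passed.

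Of the other complexes, Sdhd, a membrane anchor of complex II, had 79.4, 82.1 and 83.0 FPKM in 8-week knockouts, against 60.9, 55.6 and 62.1 FPKM in controls, a log2 fold change of 0.45 (SE 0.21). Uqcrc2, a core protein of complex III, had 41.1, 37.6 and 46.2 FPKM in knockouts, against 31.3, 29.0 and 32.6 FPKM in controls, a log2 fold change of 0.41 (SE 0.20). Atp5b had 142, 141 and 214 FPKM in knockouts, against 117, 115 and 113 FPKM in controls, a log2 fold change of 0.49 (SE 0.30). None of these 3 passed with all libraries, all 3 passed without transplanted replicate 3, and 1 knockout library carried much of the rise of Atp5b.

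Every 8-week knockout was above every control for 52 members (66.7%), against 28.9% of all genes, and below for 2 (2.56%), against 28.7%. The pair below was Ndufa11 and Ndufs5, both of complex I. All 4 members of complex II, 7 of 8 of complex III, 12 of 17 of complex V, 8 of 13 of complex IV and 21 of 36 of complex I were among the 52. The 32 members that separated the groups upward at 4 weeks included 31 of these 52 (96.9% of the 32 and 59.6% of the 52), the exception being Cox7c, a small complex IV subunit. Over all genes tested at both ages, 1570 separated the groups upward at both, 76.0% of the 2067 at 4 weeks and 53.1% of the 2958 at 8 weeks. The 4-week and 8-week comparisons share no library.

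**Figure D4:**
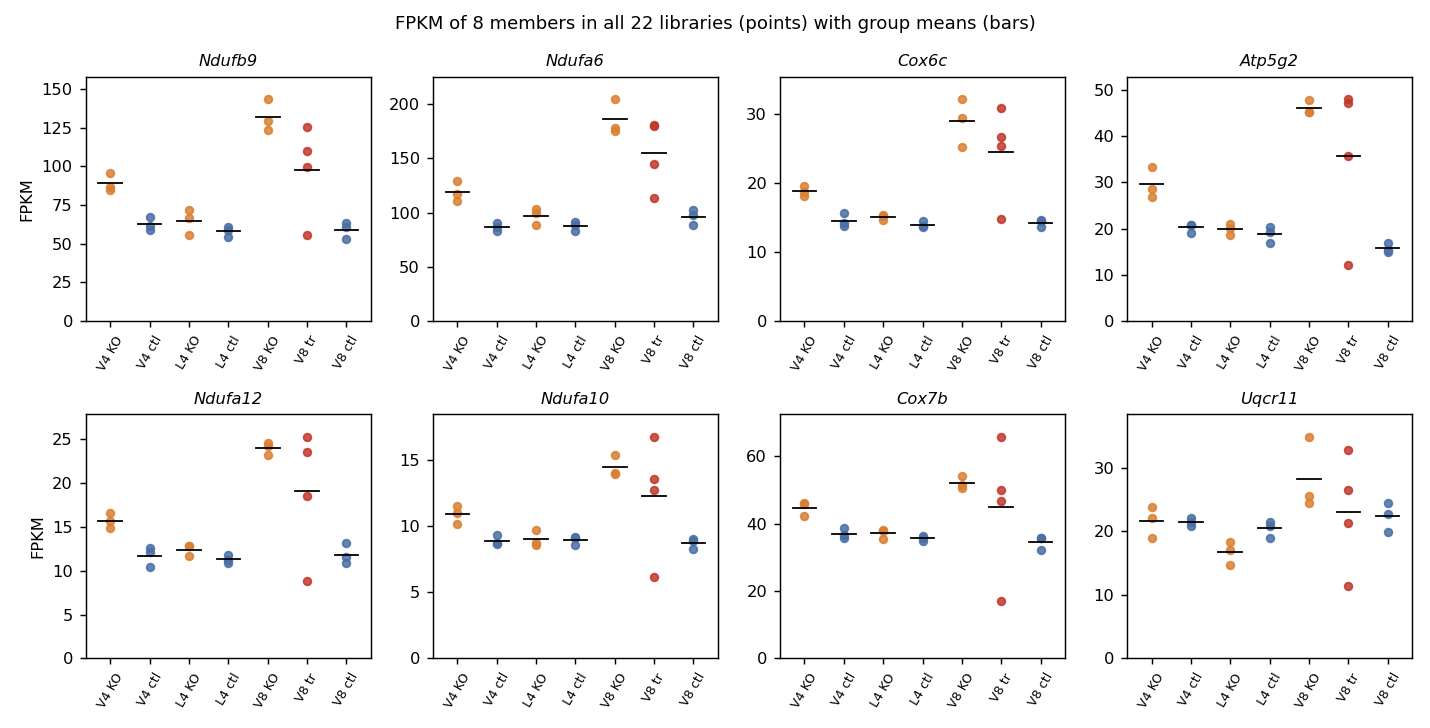
FPKM in each of the 22 libraries for 8 members (V Vav, L Lck, 4 and 8 weeks, KO knockout, tr transplanted knockout, ctl control), with a bar for each group's mean. Ndufb9, Ndufa6, Cox6c, Atp5g2, Ndufa12, Ndufa10 and Cox7b rise in Vav knockouts at 4 weeks, while Uqcr11 does not (log2 fold change 0.00).

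In the transplanted knockouts 1 member, Ndufa6, was called higher and 0 lower, against 4.59% and 4.6% of 11632 genes. Ndufa6 had 180, 181, 114 and 145 FPKM in transplanted knockouts, against 88.5, 102 and 98.0 FPKM in controls, a log2 fold change of 0.66 (SE 0.18, adjusted p = 0.0498). Even its lowest library, replicate 3, was above every control. That call was lost when any 1 library other than transplanted replicate 3 was left out. The members' median was 0.08, and -0.03 with libraries scaled to the same FPKM sum, when that of all genes was -0.10. As deposited 49 of 78 were above 0, and 6 had an unadjusted p under 0.05, 5 of them higher, against 26% of all genes in either direction and 13.2% higher.

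Without transplanted replicate 3, 31 members were called higher and 0 lower, against 18.3% and 14.9% of 11472 genes, and the median was 0.27. They were 14 of complex I, 2 of complex II, 3 of complex III, 5 of complex IV and 7 of complex V. Atp5g2 shows how far 1 library stood from the rest, with 47.3, 48.0, 12.1 and 35.8 FPKM in the transplanted knockouts, in replicate order, against 15.3, 15.03 and 16.9 FPKM in controls. Replicates 1, 2 and 4 were far above the controls and replicate 3 was below them. With that library, 3 members (3.85%) had every transplanted knockout above every control, against 11.5% of all genes, and 1 (1.28%) had all below, against 12.9%. The 3 were Cox6c, Ndufa6 and Ndufb5, a membrane arm subunit of complex I, and the one below was Ndufv3, an accessory subunit of complex I. Without it the counts were 43 (55.1%) above, against 26.2%, and 2 (2.56%) below, Ndufs5 and Ndufv3, against 23.4%.

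Replicate 3 was low across the complexes, with a complex IV sum of 453 FPKM, against 888 to 1167 FPKM in the other transplanted libraries. Its mitochondrially encoded subunits, in contrast, summed to 16624 FPKM, the highest of the 22 libraries. Its double-positive marker sum (3963 FPKM) was the highest of the transplanted group. The medians of the members relative to controls were 0.38, 0.27, -0.52 and 0.17 in transplanted replicates 1 to 4, and 0.24, 0.23 and 0.31 in untransplanted knockouts. Transplanted replicates 1 and 2 had Xist, as the 8-week controls did, and the other knockout libraries of that age had almost none. The part of sex in these medians was not tested.

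Transplanted against untransplanted knockouts gave 0 calls among the members, and limma called 0% of 11632 genes higher and 0% lower with all libraries, and 0% and 0% of 11472 genes without replicate 3. The members' median was -0.21, with 10 above 0 and 1 member at an unadjusted p under 0.05, against 5.85% of all genes. Without replicate 3 it was -0.00, with 37 above 0.

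The Vav effect was larger at 8 than at 4 weeks for 12 members and smaller for 0, tested as an interaction over 12 libraries, against 8.87% and 9.37% of 10489 genes. The 12 were Ndufb9, Ndufa6, Ndufa12, Ndufa10, Ndufa9 and Ndufv1 of complex I, Uqcrc2 of complex III, Cox6c and Cox7b of complex IV, and Atp5g2, Atp5g1 and Atp5f1 of complex V. The median difference was 0.17 over the members and -0.02 over all genes, and 66 members were above 0. At an unadjusted p under 0.05 there were 21 members, all with a larger effect at 8 weeks, against 33.2% of all genes in either direction and 15.9% with a larger effect. Since the 8-week knockouts and controls differ in sex, the difference between ages and that between sexes cannot be told apart here. The ages also came in separate tables, with an implied depth of 31.1 to 37.5 M reads at 4 weeks. It was 10.8 to 21.1 M in the 8-week knockouts and controls, and the part of depth was not tested. The count was 5 without 4-week control replicate 3, 6 without 4-week control replicate 2, 6 without 8-week control replicate 2, 7 without 4-week knockout replicate 1 and 7 without 8-week control replicate 1. Scaled to the same FPKM sum, 32.2% of all calls were higher, against 48.6% as deposited, and 6 members were called.

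The difference was largest for Atp5g2, 0.97 (SE 0.11, adjusted p = 0.000981), a 1.96-fold ratio between the fold changes at 8 and 4 weeks. For Ndufb9 it was 0.65 (SE 0.12, adjusted p = 0.00724), for Cox6c 0.61 (SE 0.12, adjusted p = 0.0075) and for Ndufa6 0.50 (SE 0.12, adjusted p = 0.0192). These 4 genes all lie on chromosome 15. Elsewhere the largest was Ndufa12, with 24.2, 23.2 and 24.5 FPKM in 8-week knockouts, against 10.8, 11.5 and 13.2 FPKM in controls, a difference of 0.57 from its 4-week effect (SE 0.12, adjusted p = 0.0111).

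Ndufa10 had 13.9, 14.01 and 15.4 FPKM in 8-week knockouts, against 8.22, 8.98 and 8.85 FPKM in controls, and its effect differed from that at 4 weeks by 0.41 (SE 0.09, adjusted p = 0.0132). Cox7b had 50.5, 54.3 and 51.6 FPKM in 8-week knockouts, against 35.6, 32.2 and 35.6 FPKM in controls, a difference of 0.32 (SE 0.09, adjusted p = 0.0302). Atp5f1, the b subunit of the peripheral stalk of ATP synthase, had 42.6, 41.0 and 46.0 FPKM in 8-week knockouts, against 30.4, 30.7 and 31.7 FPKM in controls, a difference of 0.31 (SE 0.08, adjusted p = 0.0282). None of these genes overlapped between the 8-week groups.

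Ndufv1, which binds the flavin that accepts electrons from NADH, shows a difference between ages in a gene that was flat at 4 weeks. At 8 weeks it had 9.10, 8.99 and 9.42 FPKM in knockouts, against 7.31, 7.40 and 7.94 FPKM in controls. At 4 weeks it had 8.88, 8.56 and 8.45 FPKM in knockouts, against 8.36, 8.86 and 8.68 FPKM in controls, and the difference of effects was 0.25 (SE 0.07, adjusted p = 0.0373). Ndufa9 (0.34, SE 0.10, adjusted p = 0.0446) and Uqcrc2 (0.34, SE 0.10, adjusted p = 0.0472) were likewise near their controls at 4 weeks, with log2 fold changes of 0.02 and 0.07.

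The 4 members on chromosome 15 were Ndufb9, Ndufa6, Cox6c and Atp5g2, and all 4 were called at 4 weeks and in the difference between ages. Their coordinates on mm10 are chr15:58933756-58939488 for Ndufb9, chr15:82350140-82354322 for Ndufa6, chr15:35925886-35938246 for Cox6c and chr15:102662864-102672352 for Atp5g2, so they are spread along the chromosome. Their median log2 fold change was 0.48 in Vav knockouts at 4 weeks, against 0.11 for the 74 members on other chromosomes. It was 1.06 at 8 weeks, against 0.25, and 0.68 in transplanted knockouts, against 0.06. With Lck it was 0.12, against 0.05. With genes of chromosome 15 left out of the fit 4 of the other 74 members were called higher at 4 weeks, against 6.2% of 10408 genes, and 0 at 8 weeks, against 3.16% of 11170 genes.

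The chromosome as a whole moved the same way. Of 420 tested genes on chromosome 15, 148 were called higher and 10 lower in Vav knockouts at 4 weeks, with a median log2 fold change of 0.25, against -0.01 for the other genes. At 8 weeks 146 of 462 were called higher and 1 lower, with a median of 0.55, against -0.02 for the rest. With Lck 3 of 414 were called higher and 2 lower, with a median of 0.03. Over the 265 genes of the chromosome at 5 FPKM or more, the median difference from controls was 0.30, 0.22 and 0.30 in the 4-week Vav knockouts, 0.04, 0.04 and 0.02 in the Lck knockouts, 0.65, 0.51 and 0.57 in the 8-week knockouts and 0.49, 0.54, 0.38 and 0.51 in the transplanted knockouts. Every library of the Vav knockouts was therefore shifted, transplanted replicate 3 included. Whether the shift of the chromosome accounts for the 4 members was not tested.

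**Figure D5:**
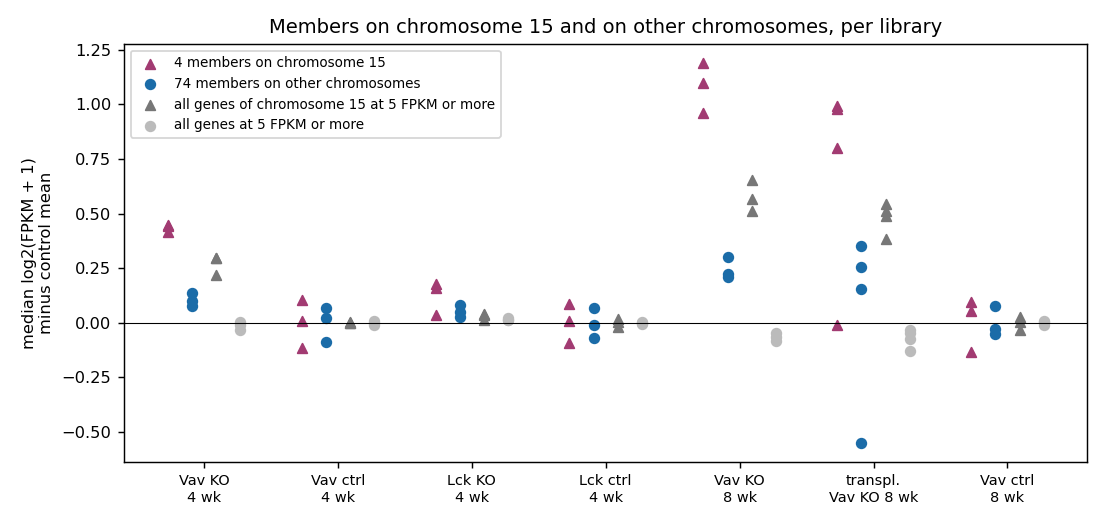
Median difference from controls in log2(FPKM + 1), per library, for the 4 members on chromosome 15, the 74 members elsewhere, all genes on chromosome 15 and all genes (at 5 FPKM or more). In 8-week knockouts the 4 members had medians of 0.96 to 1.19, and all genes of the chromosome 0.51 to 0.65.

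The other gene lists of respiration were compared with the members. For these counts, 7.63% of all genes were called higher at 4 weeks with Vav and 0.201% with Lck. At 8 weeks the share was 4.65% in knockouts and 4.59% in transplanted knockouts. Without transplanted replicate 3 these were 16.6% and 18.3%, with 14.9% lower in transplanted knockouts. For the difference between ages 8.87% were higher. The 13 subunits encoded in mitochondrial DNA summed to 9429 to 11149 FPKM in 4-week Vav knockouts, against 8657 to 9054 FPKM in controls, and 3 of 12 tested were called higher (mt-Nd5, mt-Nd6 and mt-Atp6). In these libraries mt-Nd3, mt-Nd4l, mt-Co2, mt-Co3, mt-Atp6 and mt-Atp8 had at most 8.81 FPKM, against 3511 to 4359 FPKM of mt-Co1. The sums therefore come almost wholly from the other subunits. Why these levels were so low, and what part mapping or counting had in it, was not tested. At 8 weeks they summed to 13030 to 13836 FPKM in knockouts and 10661 to 16624 FPKM in transplanted knockouts, against 6391 to 7844 FPKM in controls. Of 13 tested, 8 were called higher in knockouts and 9 in transplanted knockouts, with median log2 fold changes of 0.88 and 0.93, and 0 were lower. The 8 included mt-Nd4l, mt-Co3, mt-Atp6 and mt-Atp8, which had at most 33.2 FPKM in those knockouts. Without transplanted replicate 3 the counts were 12 in both. In Lck knockouts 0 of 12 were called, with a median of -0.09 and sums of 5854 to 9622 FPKM in knockouts and 7091 to 8523 FPKM in controls. The effect was larger at 8 than at 4 weeks for 9 of 12, with a median difference of 0.74.

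Among 46 assembly factors, proteins that build the complexes without staying in them, 1 of 42 tested was called at 4 weeks with Vav. It was Cox10, which acts in making the heme A of complex IV (log2 fold change 0.28, adjusted p = 0.0266). At 8 weeks there were 2 of 42, the complex I factor Ndufaf4 (0.75) and the complex III factor Uqcc2 (0.98), and in transplanted knockouts Ndufaf4 alone (0.94). Without transplanted replicate 3, 4 were higher in knockouts, and in transplanted knockouts 7 were higher and 3 lower. With Lck 0 of 41 were called. Of 12 tested subunits and carriers whose symbols fall outside the rule, Cyc1, the cytochrome c1 of complex III, and Gpd2, the mitochondrial glycerol-3-phosphate dehydrogenase, were called at 4 weeks. Cyc1, which also lies on chromosome 15, had 124, 110 and 118 FPKM in 4-week Vav knockouts, against 85.8, 86.6 and 89.6 FPKM in controls. Its log2 fold change was 0.42 (adjusted p = 0.0092), its groups did not overlap, and its effect exceeded that of Lck by 0.38 (adjusted p = 0.0139).

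Among enzymes of the tricarboxylic acid cycle, Dld, the shared dehydrogenase subunit of the cycle's keto acid complexes, was called at 8 weeks with Vav. The Vav effect was larger at 8 than at 4 weeks for Dld, Fh1, Idh3g, Mdh2, Suclg1 and Suclg2 among them. Of 11 genes of mitochondrial membrane transport 0 were called at either age in Vav knockouts with all libraries. At 8 weeks without transplanted replicate 3 there were 5, the inner membrane carriers Slc25a1 and Slc25a3 and the outer membrane channels Vdac1, Vdac2 and Vdac3. The lists of assembly factors and transport had 0 calls with Lck.

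Among 18 regulators of mitochondrial transcription and biogenesis, Myc, a transcription factor of cell growth and a chromosome 15 gene, was the only one called at 4 weeks with Vav. It had 3.56, 6.49 and 4.34 FPKM in knockouts, against 0.957, 1.09 and 0.937 FPKM in controls, a log2 fold change of 1.51 (adjusted p = 0.00468). At 8 weeks it had 16.5, 13.7 and 15.8 FPKM in knockouts and 23, 21.3, 1.47 and 9.34 FPKM in transplanted knockouts, against 0.945, 0.734 and 0.787 FPKM in controls. Every knockout library was above every control, and transplanted replicate 3 was the lowest of its group, as it was for most members. The log2 fold changes were 3.16 (adjusted p = 0.0277) and 2.57 (adjusted p = 0.0436). With Lck it was 0.35 (adjusted p = 0.351), and the Vav effect exceeded the Lck effect by 1.15 (adjusted p = 0.0262). The part of Myc in the members' levels was not tested.

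The same comparisons were set beside the promoter letters, without a test. At 4 weeks with Vav, 2 of the 10 with the letters, Atp5g2 and Ndufa6, and 5 of the 54 without them were called higher, and the medians were 0.13 with and 0.11 without. At 8 weeks the medians were 0.28 with and 0.26 without. In transplanted knockouts they were -0.00 with and 0.08 without, and with Lck 0.06 with and 0.06 without. Both called members with the letters are on chromosome 15.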

How the data were processed

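Per the labels' protocols, RNeasy kits gave total RNA and NuGEN's Ovation Ultralow kit gave the libraries. The authors deposited FPKM per gene in 3 separately normalized tables, 1 each for the 4-week Vav, 4-week Lck and 8-week libraries. Per the submitters' processing notes, the tools were DESeq2, HTSeq 0.6.1, STAR and Trimmomatic 0.33 (no role or order given) and the build was mm10. Gene lengths, annotation and use of strand are not given in the sources used here, so overlapping genes cannot be told apart. Symbols and coordinates came from GENCODE M21 (42546 of 43430 identifiers matched) and promoters from RefSeq. The members and all lists were chosen with earlier results of these data known, and so were the genes named. These were every called member, the highest and lowest levels, the smallest p of each complex and comparison, isoforms and the members on chromosome 15.

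From the deposited FPKM, log2(FPKM + 1) was tested with limma 3.58.1 (trend) in R 4.3.3 on genes that reached 1 FPKM in 3 or more libraries of every table used, adjusted over all genes tested (Benjamini-Hochberg, threshold 0.05). The 4-week comparisons used 6 libraries and the 8-week ones 10 in 1 fit. Differences of effects used 12, as an interaction in which an offset between tables cancels. At a tolerance of 0.03, between 48.4% and 57.0% of the low FPKM values in a library fell on a whole number of reads. Since the rest did not, no count model was used, and the read totals per library are inferred. No 2 libraries were identical (0 pairs), and 0 sample columns were unused. The model was tested on simulated data. Some results of the gene lists are not reported here. Alternatives were no filter, a filter on a mean of 5 FPKM, a pseudocount of 0.1, 3 other scalings, a replicate block, chromosome 15 left out, 2 groups only and each library left out.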

Additional observations from a re-analysis of the deposited data

Results flagged for a closer look

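In the transplanted knockouts, 3 of the 38 named members and the members' share of FPKM had 1 library far from the others, by Dixon's ratio of the gap to the range at the 95% critical value. The ratio was 0.8295 for Uqcrc2, 0.8295 for Ndufa9, 0.8899 for Sdha and 0.8747 for the share. The library was replicate 3 in each case, with 22.8 FPKM of Uqcrc2, against 37.1 to 40.1 FPKM in the other 3, and 27.9 FPKM of Sdha, against 43.4 to 45.3 FPKM. Its Ndufa9 level was 32.9 FPKM, against 55.9 to 60.6 FPKM. Chance gives about 1 such library in 20 groups, and the values of these genes come from the same library.

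The Vav effect differed between 8 and 4 weeks, tested as an interaction with limma, for 12 members, all with the larger effect at 8 weeks. On the log2 scale the difference was 0.97 for Atp5g2, 0.65 for Ndufb9, 0.61 for Cox6c, 0.57 for Ndufa12, 0.50 for Ndufa6, 0.41 for Ndufa10 and 0.39 for Atp5g1. It was 0.34 for Ndufa9, 0.34 for Uqcrc2, 0.32 for Cox7b, 0.31 for Atp5f1 and 0.25 for Ndufv1.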

How the results depend on the processing

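Under settings other than leaving out a library, 151 of 170 counts and medians stayed close to the reported value, within a fixed fold for counts and the SD between replicates for medians. At 4 weeks with Vav, the 9 higher calls were 4 with chromosome 15 left out, and 1 lower call appeared with the same FPKM sum and 1 with quantile normalization. With the same FPKM sum the members' median was -0.0257 with Lck, 0.14 at 8 weeks (all genes -0.12) and 0.0873 for the difference between ages, whose 12 calls became 6. At 8 weeks the 3 calls were 1 without a filter, 0 without chromosome 15 and 42 with 2 groups only. The call in transplanted knockouts gave 0 without a filter, at a mean of 5 FPKM, with median-of-ratios scaling, without chromosome 15 and with 2 groups only. Atp5g2 with Lck turned to -0.0016 with the same FPKM sum (adjusted p = 0.996). Leaving out 1 library gave 0 to 7 higher and 0 to 1 lower calls at 4 weeks with Vav, 0 to 28 higher at 8 weeks, 0 to 31 in transplanted knockouts, 0 to 1 higher and 0 to 1 lower for Vav minus Lck, and 5 to 14 for the difference between ages. Single members stayed on their side of the threshold in 348 of 466 values with 1 library left out and in 326 of 373 under other settings.

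Whether the replicate numbers pair the libraries cannot be settled with 3 libraries a group. In the 4-week Vav groups, replicate 1 was the library without Xist in knockouts and in controls alike. Different-numbered deviations correlated between -0.119 and 0.119 in those groups, -0.15 and 0.127 with Lck, and -0.0487 and -0.0021 at 8 weeks. Same-numbered deviations correlated at -0.0377, -0.122 and 0.0774 in the Vav groups at 4 weeks, 0.208, -0.0254 and 0.00887 with Lck and 0.0529, 0.0785 and 0.0561 at 8 weeks. With the replicate block the higher calls were 2 at 4 weeks with Vav, 0 at 8 weeks, 0 in transplanted knockouts and 6 for the difference between ages.

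Depth is only inferred, so no counting interval can be given, and 3 libraries a group leave small changes undetected. The 8-week spread rests on transplanted replicate 3.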
